A study of Mus musculus with 10 samples.

Results

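The cell cycle and proliferation genes examined here are 44 genes chosen by name for their textbook role, of 27267 genes listed by symbol in the deposited table, and all 44 were found in it. They were chosen with earlier results of these data known. By role they are 13 genes of DNA replication in S phase, 19 genes of G2 and mitosis, 7 cyclins and kinases of G1, the transcription factors *E2f1* and *Foxm1*, and 3 inhibitors of the cyclin-dependent kinases. They were measured by RNA sequencing of whole interscapular brown adipose tissue (iBAT) from C57BL/6 mice of 4 weeks on a standard chow diet. The labels give 5 wild type (WT) males and 5 males with a global knockout of *Mgp* (*Mgp*-KO), the gene of matrix Gla protein, a small secreted matrix protein that binds bone morphogenetic proteins. The knockout is present in all cells of the body from conception, so that a difference in iBAT need not arise in the tissue itself. The comparison asks whether the RNA of proliferating cells is higher or lower in the *Mgp*-KO tissue, and whether the genes of S phase and of mitosis move together.

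A cell that divides passes through G1, S, G2 and M phase, and each step has its own set of transcripts. D- and E-type cyclins with their kinases release E2F factors from RB proteins, and E2F turns on the replication genes of S phase, among them the MCM helicase, PCNA and the enzymes that make deoxynucleotides. Late genes such as *Top2a*, *Ccnb1* and *Plk1* follow in G2, under FOXM1, B-MYB and the MuvB complex, and their RNA is low in resting cells. In iBAT the dividing cells are mainly progenitors, endothelial cells and immune cells, whereas mature brown adipocytes rarely divide. In bulk tissue, fewer cells of a type and less RNA per cell cannot be told apart.

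The promoter letters of both programmes are given first. Of the 44 members, 34 had an entry in the RefSeq promoter table (build GRCm38.p6, the assembly of mm10). The 140 bases before the annotated start were searched on both strands for the CHR letters TTTGAA, known from late genes, for the E2F letters TTTCCCGC, TTTGGCGC and TTTCGCGC, and for CCAAT. The CHR letters were found in 6 of 15 mitosis promoters (*Mki67*, *Top2a*, *Cdk1*, *Cdc20*, *Ube2c* and *Kif11*) and in 1 of 12 S-phase promoters (*Mcm2*), beside 8.38% of all 32851 promoter entries. The E2F letters were found in 2 of 12 S-phase promoters (*Mcm6* and *Cdc6*) and in 1 of 15 mitosis promoters (*Cdk1*), beside 0.959% of all entries. CCAAT was found in 13 of 15 mitosis and 7 of 12 S-phase promoters, beside 23.4% of all entries. A match is a description of the letters and not a bound site. The windows of *Top2a*, *Mki67* and *Kif11*, late genes with the CHR letters, and of both S-phase genes with the E2F letters are shown, since the results turn on these 2 groups. They run 5′ to 3′ on the strand of the gene and end at the base before the start, with matches to the 3 motifs on either strand in capitals.
Top2a (chr11:99024190-99024329, minus strand): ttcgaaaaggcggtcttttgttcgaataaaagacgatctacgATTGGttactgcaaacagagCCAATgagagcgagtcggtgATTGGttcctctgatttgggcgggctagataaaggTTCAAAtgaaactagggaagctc
Mki67 (chr7:135716380-135716519, minus strand): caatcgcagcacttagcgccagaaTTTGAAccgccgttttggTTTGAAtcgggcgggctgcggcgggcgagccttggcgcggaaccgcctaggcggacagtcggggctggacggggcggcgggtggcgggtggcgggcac
Kif11 (chr19:37376242-37376381, plus strand): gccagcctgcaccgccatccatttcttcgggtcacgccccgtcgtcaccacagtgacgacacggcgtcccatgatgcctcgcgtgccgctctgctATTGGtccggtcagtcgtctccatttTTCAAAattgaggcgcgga
Mcm6 (chr1:128359706-128359845, minus strand): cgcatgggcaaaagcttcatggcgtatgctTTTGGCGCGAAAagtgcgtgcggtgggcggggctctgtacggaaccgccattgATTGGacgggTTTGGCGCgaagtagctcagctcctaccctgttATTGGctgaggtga
Cdc6 (chr11:98908011-98908150, plus strand): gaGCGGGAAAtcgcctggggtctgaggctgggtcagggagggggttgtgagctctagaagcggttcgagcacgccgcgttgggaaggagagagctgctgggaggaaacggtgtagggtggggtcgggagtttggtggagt
In *Top2a* the CHR letters began 23 bases before the start, on the opposite strand, with 3 CCAAT matches further upstream. In *Kif11* they began 19 bases before the start, and in *Mki67* the matches stood at 116 and 98 bases. The E2F matches of *Mcm6* began at 110, 106 and 47 bases, of which the first 2 overlap, and *Cdc6* had a single one at 138 bases. The *Cdc6* window lies inside the gene as annotated by GENCODE, which begins at base 98907801. It therefore does not stand upstream of the outermost annotated start.

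The libraries held 9253793 to 22252260 reads on genes, and those of replicates 4 and 5 of both groups were the shallower ones (at most 13281873 reads). Replicates 1 to 3 and replicates 4 and 5 also stood apart in other ways. Mitochondrial ribosomal RNA took 0.771% to 1.72% of the reads in the first set and 6.50% to 16.7% in the second, and 38.2% of all tested genes differed between the sets. The deleted gene was checked first. *Mgp* had 634 to 805 reads in WT 1 to 3, 782 and 485 in WT 4 and 5, and 0, 1 and 1 in *Mgp*-KO 1 to 3, but the libraries labelled *Mgp*-KO 4 and 5 had 309 and 282. In 1 further library, WT 2, reads of *Xist* and of Y chromosome genes went against the male label. All comparisons are therefore given over the 10 libraries as labelled and within each set. Values are normalized counts, that is, reads divided by a size factor of the library, and a fold change is on the scale log2(normalized count + 1). A call is an adjusted p under 0.05 by limma (Benjamini-Hochberg over all 13714 tested genes with a mean of at least 10). In normalized counts *Mgp* was at 466 to 576 in WT 1 to 3, 1146 and 839 in WT 4 and 5, and 500.2 and 331 in *Mgp*-KO 4 and 5. It was called within replicates 1 to 3 (-8.43, limma adjusted p = 9.6e-05) and with a term for the set (-5.57, limma adjusted p = 0.0245). Without that term it was not called over all 10 libraries (limma adjusted p = 0.236), nor within replicates 4 and 5 (-1.27, limma adjusted p = 0.679).

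In replicates 1 to 3 the summed level of the mitosis genes separated *Mgp*-KO from WT, with *Mgp*-KO lower, and that of the S-phase genes did not. The 19 mitosis genes summed to 662, 830.4 and 795 normalized counts in WT and to 304, 242 and 383 in *Mgp*-KO, so that all 3 *Mgp*-KO libraries lay below all 3 WT libraries (762 ± 89.0 against 310.2 ± 70.7, SD, n = 3). The 13 S-phase genes summed to 1521, 1647 and 1879.8 in WT and to 1563, 1954 and 1556 in *Mgp*-KO, and the groups overlapped (1683 ± 182 against 1691 ± 228). The ratio of the mitosis sum to the S-phase sum was 0.423 to 0.504 in WT 1 to 3 and 0.124 to 0.246 in *Mgp*-KO 1 to 3. The median log2 fold change of the 16 tested mitosis genes was -1.22 and that of the 13 S-phase genes -0.37, beside 0.02 over all tested genes. All 16 mitosis genes had a negative fold change in this set, against 7 of 13 S-phase genes and 6498 of all 13714 tested genes. With each of the 6 libraries left out in turn the median ran from -1.08 to -1.37 for mitosis and from -0.26 to -0.43 for S phase.

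In replicates 4 and 5 the summed level of the mitosis genes did not separate the groups. The mitosis genes summed to 355 and 628 in WT and to 779 and 365 in *Mgp*-KO, and each group had 1 high and 1 low library. The S-phase genes summed to 1288 and 1322 in WT and to 1649.5 and 1340.0 in *Mgp*-KO, both above WT, and the ratio of both sums was 0.275 and 0.475 in WT against 0.472 and 0.272 in *Mgp*-KO. Median fold changes were 0.11 for mitosis and 0.31 for S phase, beside 0.02 over all genes. Over all 10 libraries the medians were -0.66 and -0.05, beside 0.03 over all genes, and the sums of neither group of genes separated WT from *Mgp*-KO.

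**Figure D1:**
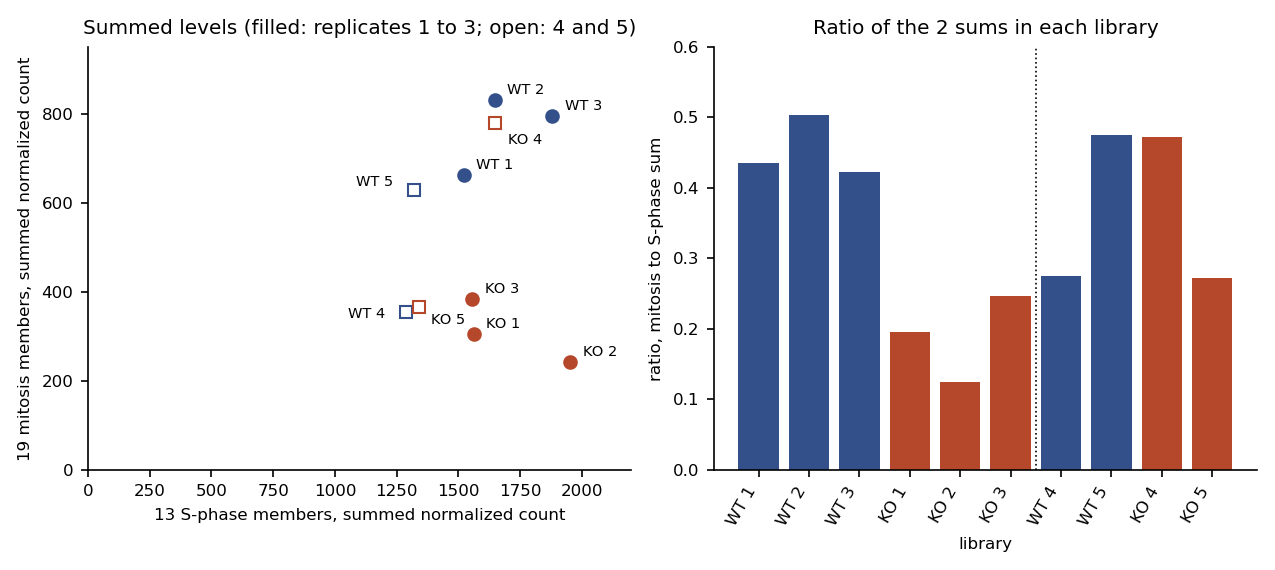
Left, the summed normalized count of the 19 mitosis members (vertical axis) against that of the 13 S-phase members (horizontal axis) in each library, blue for WT, orange for Mgp-KO, filled for replicates 1 to 3 and open for 4 and 5. Right, the ratio of both sums, which was at most 0.246 in Mgp-KO 1 to 3 and at least 0.423 in WT 1 to 3, while replicates 4 and 5, right of the dotted line, overlapped.

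Calls were few. Over all 10 libraries limma called 0 of 41 tested members, beside 0.0656% of all tested genes, with 5 members at an unadjusted p under 0.05. DESeq2 on the recovered reads called 0 of 44, beside 2.26% of its tested genes (5 unadjusted), and edgeR 0 of 41, beside 3 of all 13714 (3 unadjusted). For unadjusted p, here and below, the share over all tested genes is not given, so these counts cannot be set against it. *Ccnb1*, *Aurkb* and *Bub1* stayed below the mean of 10 and were not tested by limma. No member separated the 5 WT from the 5 *Mgp*-KO libraries, beside 3.50% of all tested genes. With the libraries labelled *Mgp*-KO 4 and 5 left out limma called 2 members, *Ccna2* and *Cdkn1c*, both lower, beside 1.95% of all tested genes. WT 4 and 5 stayed in that fit, which had no set term, so that genotype is partly mixed with the set in it. With the set as a term in the model and all 10 libraries 1 of 41 members was called, *Kif20a*, beside 2.36% of all tested genes.

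Within replicates 1 to 3, limma called 4 of 41 members, beside 3.54% of all tested genes, and all 4 were lower in *Mgp*-KO, beside 1.65% of all genes called lower. They were the late genes *Top2a*, *Ccna2* and *Tpx2* and the inhibitor *Cdkn1c*. DESeq2 called 12 of 44 members in the same 6 libraries, beside 8.83% of its tested genes. Of these 11 were lower (*Kif20a*, *Ccna2*, *Mki67*, *Birc5*, *Ube2c*, *Ccnb2*, *Top2a*, *Kif11*, *Tpx2*, *Cdkn1c* and *Foxm1*) and 1 was higher (*Rrm2*). By edgeR 3 of 41 members were called (*Top2a*, *Tpx2* and *Cdkn1c*), beside 448 of all 13714 tested genes. In 29 of 41 tested members the 3 *Mgp*-KO and the 3 WT libraries did not overlap, beside 30.6% of all tested genes, and in 25 of them *Mgp*-KO was lower, beside 15.1%. Of the 16 tested mitosis genes 13 were lower in this sense and none higher, and of the 13 S-phase genes 7 were lower and 2 higher. With 1 library left out the number of calls moved, among the members and among all genes. It fell to 0 without WT 1, WT 2, WT 3 or *Mgp*-KO 1, where the calls over all genes fell from 486 to 106, 26, 124 and 93. It was 3 without *Mgp*-KO 3 (*Ccna2*, *Mki67* and *Top2a*), and rose to 6 without *Mgp*-KO 2, with *Kif11* and *Foxm1* added, beside 157 and 811 calls over all genes. The fold change of *Top2a* was -1.63 to -1.78 where its call was lost.

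In replicates 4 and 5 limma called 0 of 41 members, and 0% of all tested genes, with 1 member at an unadjusted p under 0.05. DESeq2 called 0 of 38 members it tested (2 unadjusted) and edgeR 0 of 41 (2 unadjusted). WT and *Mgp*-KO did not overlap in 14 of 41 members, beside 41.6% of all tested genes. Of these members 3 were lower and 11 higher, beside 2921 lower and 2790 higher among all 13714 tested genes. Whether the genotype difference itself differed between the sets was tested by an interaction term. It was called for 0 of 41 members, beside 0.00729% of all tested genes, with 16 members at an unadjusted p under 0.05. DESeq2 called 0 of 42 members (14 unadjusted) and edgeR 0 of 41 (13 unadjusted). Without *Mgp*-KO 5 the limma interaction was called for 8 members (*Rrm2*, *Top2a*, *Kif11*, *Tpx2*, *Cdkn1c*, *Foxm1*, *Ccnd2* and *Mcm5*) and for 1612 genes in all.

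**Figure D2:**
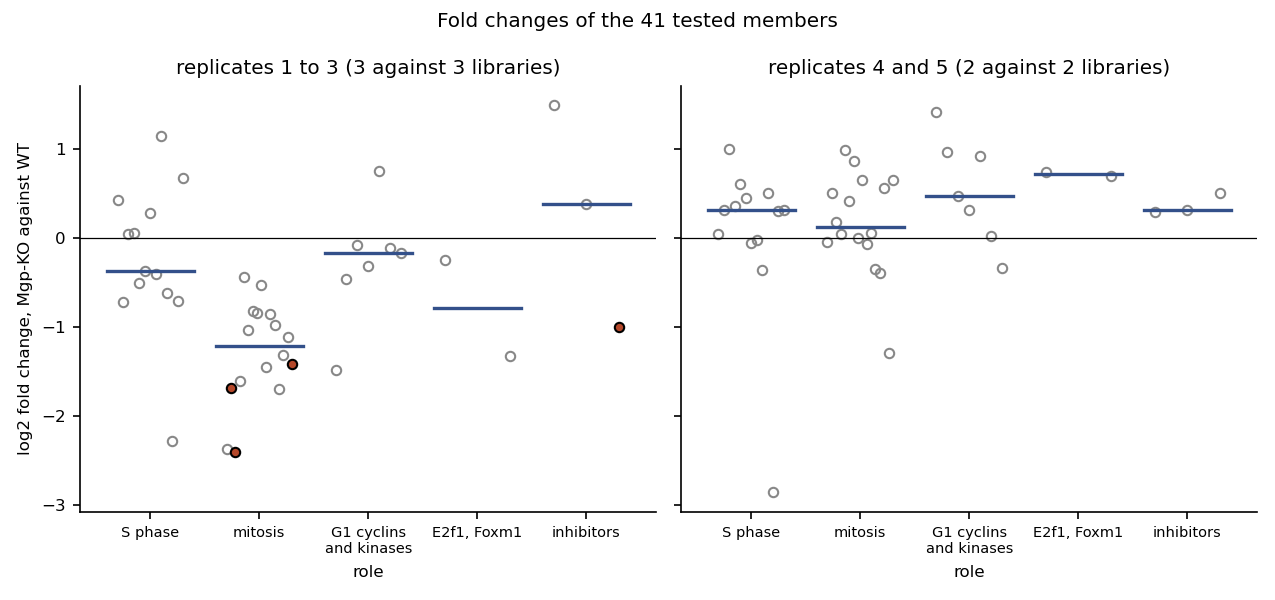
Log2 fold change of Mgp-KO against WT (vertical axis) for each of the 41 tested members, grouped by role, within replicates 1 to 3 (left) and within replicates 4 and 5 (right). Filled points are the 4 members called by limma and blue bars are medians, -1.22 for mitosis on the left and 0.11 on the right.

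**Figure D3:**
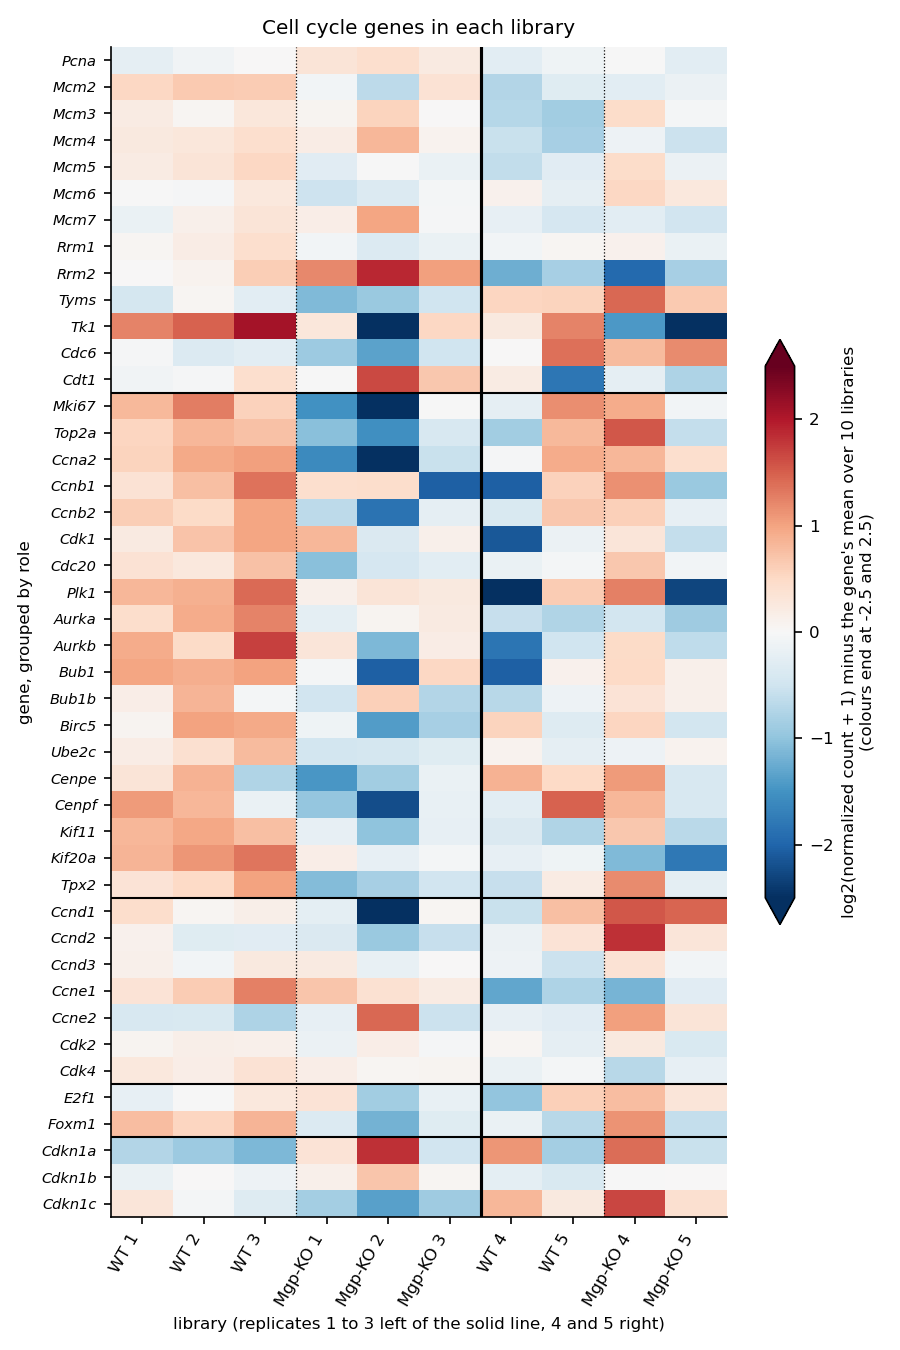
Each row is 1 of the 44 members and each column 1 library, with the colour giving log2(normalized count + 1) minus the mean of the gene over the 10 libraries (red above, blue below). The mitosis rows are mostly red in WT 1 to 3 and mostly blue in Mgp-KO 1 to 3, with many of the deepest blues in Mgp-KO 2, whereas right of the solid line WT 4 and Mgp-KO 5 are the paler or bluer libraries of their groups.

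Among the late genes, *Top2a* (chr11:98992943-99024189, minus strand) encodes the topoisomerase that untangles sister chromatids. It had 83.7, 103 and 95.6 normalized counts in WT 1 to 3 and 27.1, 19.1 and 43.5 in *Mgp*-KO 1 to 3. Replicates 4 and 5 had 30.8 and 102 in WT and 170.0 and 37.5 in *Mgp*-KO. The first set separated the groups, whereas in the second *Mgp*-KO 4 held the highest value of the series, and WT 4 and *Mgp*-KO 5 lay in the range of *Mgp*-KO 1 to 3. The fold change was -1.69 ± 0.30 (SE) within replicates 1 to 3 (limma adjusted p = 0.0326) and 0.50 ± 0.86 within replicates 4 and 5 (adjusted p = 0.853).

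Cyclin A2, encoded by *Ccna2* (chr3:36564865-36572150, minus strand), binds CDK2 and CDK1 from S phase to early mitosis. Its values were 40.1, 53.2 and 55.9 in WT 1 to 3 against 8.29, 3.82 and 18.1 in *Mgp*-KO 1 to 3, and 26.4 and 51.9 against 48.6 and 36.3 in replicates 4 and 5. Within the first set every *Mgp*-KO library was below every WT library, with a fold change of -2.40 ± 0.49 (limma adjusted p = 0.0446; edgeR 0.0522), and within the second the values overlapped. The spindle assembly factor *Tpx2* (chr2:152847964-152895321, plus strand), which activates Aurora A on microtubules, had 34.3, 38.2 and 54.4 in WT 1 to 3 and 12.1, 14.5 and 18.9 in *Mgp*-KO 1 to 3. In replicates 4 and 5 it had 17.6 and 31.1 in WT and 61.5 and 22.3 in *Mgp*-KO. It changed by -1.42 ± 0.29 in the first set (limma adjusted p = 0.0445), and the highest of all 10 values was that of *Mgp*-KO 4.

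*Mki67*, the gene of the Ki-67 antigen that coats mitotic chromosomes and is the usual marker of cycling cells, had 124, 173 and 105 in WT 1 to 3 and 24.1, 8.41 and 69.8 in *Mgp*-KO 1 to 3. It had 60.1 and 159 in WT 4 and 5 and 134 and 66.8 in *Mgp*-KO 4 and 5. The first set did not overlap, with a ratio of means of 0.254, but the 3 *Mgp*-KO libraries spread widely (34.1 ± 31.9, SD, n = 3) and limma did not call it (-2.37 ± 0.65, adjusted p = 0.0953), while DESeq2 did (adjusted p = 0.0055). *Kif20a*, a kinesin of the central spindle and of cytokinesis, was the 1 member called with the set term. It had 34.3, 41.2 and 48.5 in WT 1 to 3, 16.1 and 17.3 in WT 4 and 5, 21.1, 16.1 and 18.1 in *Mgp*-KO 1 to 3, and 8.09 and 4.69 in *Mgp*-KO 4 and 5. *Mgp*-KO lay below WT within both sets, and the libraries of the second set lay below those of the first within both genotypes. The fold change with the set term was -1.19 ± 0.27 (limma adjusted p = 0.0434), and the adjusted p was above 0.05 when any library other than *Mgp*-KO 4 was left out (0.0612 to 0.143).

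*Cdk1*, the kinase that drives mitosis, had 33.6, 47.9 and 58.1 in WT 1 to 3 and 52.0, 22.2 and 31.2 in *Mgp*-KO 1 to 3. It had 5.86 and 26.0 in WT 4 and 5 and 35.6 and 18.8 in *Mgp*-KO 4 and 5, so that the groups overlapped in both sets. Its fold change over all 10 libraries was 0.13 ± 0.55 (limma adjusted p = 0.963). The partner *Ccnb1*, cyclin B1, was too low for the test, with 0 to 13 reads in a library. It had 4.29, 5.99, 9.56, 0 and 5.19 normalized counts in WT 1 to 5 and 4.52, 4.59, 0, 8.09 and 1.17 in *Mgp*-KO 1 to 5, and a value of 0 lies under a floor of 3 reads, which is 2.15 to 5.19 normalized counts depending on the library. At this depth no difference in *Ccnb1* was detectable. *Aurkb* and *Bub1*, a kinase of the chromosomal passenger complex and a kinase of the spindle checkpoint, were as shallow, with 1 to 38 and 0 to 10 reads.

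The other 10 tested mitosis genes had negative fold changes within replicates 1 to 3 without a limma call. Their fold changes ran from -1.70 for the kinetochore gene *Cenpf* to -0.53 for the checkpoint kinase *Bub1b*. *Kif11*, the motor that pushes spindle poles apart, missed the threshold narrowly (-1.32 ± 0.29, limma adjusted p = 0.0565). *Ube2c*, the ubiquitin-conjugating enzyme of the anaphase-promoting complex, had close *Mgp*-KO values, at 30.9, 31.4 and 34.5 against 48.6, 56.9 and 75.0 in WT 1 to 3. Within replicates 4 and 5 the 16 tested mitosis genes had 10 positive and 6 negative fold changes, from -1.30 for *Kif20a* to 0.98 for *Cdk1*.

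In the S-phase group limma and edgeR called 0 of 13 members in any genotype fit, with 7 at an unadjusted limma p under 0.05 in replicates 1 to 3, and DESeq2 called *Rrm2* in replicates 1 to 3 and *Tk1* with the set term. *Pcna*, the sliding clamp of the replicative polymerases, was higher in every *Mgp*-KO library of the first set, at 312, 333 and 289 against 212, 234 and 251 in WT 1 to 3. Replicates 4 and 5 had 208 and 230.1 in WT and 246 and 206 in *Mgp*-KO. The fold change was 0.42 ± 0.13 in the first set (limma adjusted p = 0.124) and 0.04 ± 0.34 in the second.

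*Rrm2*, the regulated subunit of ribonucleotide reductase, had the largest positive fold change of the S-phase genes in replicates 1 to 3. It had 52.9, 56.2 and 81.6 in WT 1 to 3 and 124, 198 and 109 in *Mgp*-KO 1 to 3, but 22.0 and 29.4 in WT 4 and 5 and 13 and 29.3 in *Mgp*-KO 4 and 5. Within the first set all *Mgp*-KO libraries were above all WT libraries, by 1.14 ± 0.28 (limma adjusted p = 0.0715; DESeq2 adjusted p = 0.0045), and in the second set all 4 libraries were lower than any library of the first. Its partner subunit *Rrm1* went the other way, with 403, 441 and 520.5 in WT 1 to 3 and 370.1, 308 and 346 in *Mgp*-KO 1 to 3 (-0.41 ± 0.14, limma adjusted p = 0.159).

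The MCM subunits, which form the replicative helicase as 1 complex, did not share a direction in replicates 1 to 3. *Mcm2* had 92.3, 102 and 99.98 in WT 1 to 3 and 61.0, 40.5 and 82.1 in *Mgp*-KO 1 to 3, and 38.1 and 51.9 against 53.4 and 57.4 in replicates 4 and 5. *Mgp*-KO was below WT in the first set (-0.73 ± 0.26, limma adjusted p = 0.168) and above it in the second (0.31 ± 0.49, adjusted p = 0.84). *Mcm5* and *Mcm6* had the same 2 orders, while *Mcm3*, *Mcm4* and *Mcm7* overlapped in the first set, with fold changes of 0.04, 0.05 and 0.28. In replicates 4 and 5 all subunits but *Mcm7* were higher in both *Mgp*-KO libraries than in both WT libraries, from 0.31 for *Mcm2* to 0.997 for *Mcm3*, without a call. *Mgp*-KO 2 held the highest *Mcm7* value of the series, at 379, and the second lowest *Mcm2* value, at 40.5.

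Thymidine is supplied by salvage through *Tk1* and by synthesis through *Tyms*. *Tk1*, thymidine kinase, had a fold change of -2.51 ± 0.77 over the 10 libraries, which was -1.01 at a pseudocount of 10, and was not called (limma adjusted p = 0.248, with the set term 0.0794). Its values were 15.7, 18.7, 28.7, 7.33 and 15.6 in WT 1 to 5 and 7.54, 0, 9.03, 1.62 and 0 in *Mgp*-KO 1 to 5, from 0 to 39 reads. *Mgp*-KO lay below WT within each set, and 3 of the 5 *Mgp*-KO values are at or under the floor of 3 reads. *Tyms*, thymidylate synthase, was lower in *Mgp*-KO within the first set (32.1 ± 7.21 against 49.7 ± 8.64, SD, n = 3) and higher within the second, where *Mgp*-KO 4 had 157. The licensing factors *Cdc6* and *Cdt1*, which load the helicase on origins, had fold changes of -0.71 and 0.67 in the first set, and neither was called.

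**Figure D4:**
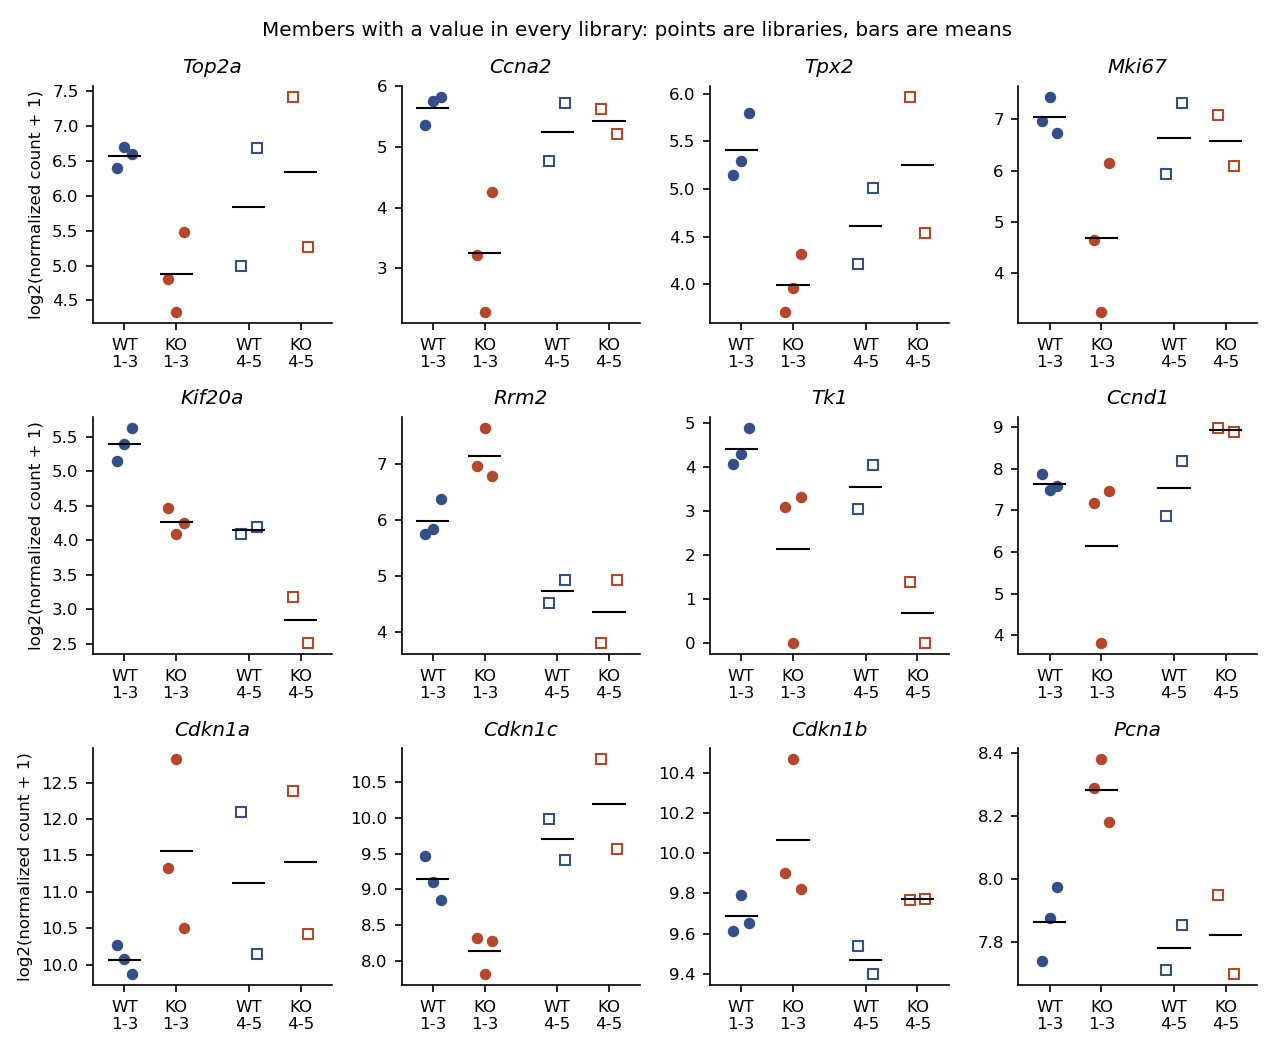
Each panel gives 1 member in log2(normalized count + 1), with blue points for WT, orange for Mgp-KO, filled circles for replicates 1 to 3, open squares for 4 and 5 and bars at the means (axes do not start at 0). Top2a, Ccna2, Tpx2 and Mki67 separate in the first set and overlap in the second, Kif20a and Tk1 are lower in Mgp-KO in both, and Rrm2 is above WT only in the first.

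Of the G1 cyclins and kinases, 0 of 7 were called by limma, DESeq2 or edgeR in any genotype fit. The unadjusted limma p was under 0.05 for *Ccne2* over all 10 libraries, for *Ccnd2* in replicates 1 to 3 and for *Ccnd1* in replicates 4 and 5. *Ccnd1*, the cyclin induced by growth factors, had 232, 177 and 190.4 in WT 1 to 3 and 144, 13 and 177 in *Mgp*-KO 1 to 3, and 116 and 289 against 503 and 472 in replicates 4 and 5. *Mgp*-KO 2 alone was far below all other libraries, and both libraries labelled *Mgp*-KO 4 and 5 were above every other one. The fold change was -1.49 ± 0.87 in the first set (limma adjusted p = 0.366) and 1.41 ± 0.48 in the second (adjusted p = 0.679).

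*Ccnd2* had 655, 492, 501, 549.7 and 772 in WT 1 to 5 and 470.3, 319.8, 409, 2143 and 748 in *Mgp*-KO 1 to 5. One library, *Mgp*-KO 4, was far above the rest, and *Mgp*-KO 1 to 3 were all below WT 1 to 3 (-0.46 ± 0.19, limma adjusted p = 0.201). *Ccnd3* overlapped between the groups, at 559 to 965 in WT and 715 to 1036 in *Mgp*-KO. The E-type cyclins, which act with CDK2 at the entry to S phase, overlapped in the first set, and *Ccne2* reached 116 in *Mgp*-KO 2. *Cdk4*, the kinase partner of the D cyclins, had 771.2 to 880.0 in WT 1 to 3 and 706.8 to 771.0 in *Mgp*-KO 1 to 3. In replicates 4 and 5 it had 609.8 and 664 in WT and 424 and 593 in *Mgp*-KO. It was thus lower in *Mgp*-KO within each set, in the first by a narrow margin, without a call. *Cdk2* had 343 to 441 in WT and 308 to 476 in *Mgp*-KO.

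The transcription factors differed from each other. *Foxm1*, which drives the late genes, had 68.7, 57.7 and 72.0 in WT 1 to 3 and 30.9, 16.8 and 32.0 in *Mgp*-KO 1 to 3, without overlap, and 35.2 and 24.2 against 87.4 and 25.8 in replicates 4 and 5. It missed the threshold of limma in the first set (-1.33 ± 0.29, adjusted p = 0.053) and passed that of DESeq2 (adjusted p = 0.0028). *E2f1*, which drives the S-phase genes, had 23.6, 27.0 and 33.1 against 34.7, 14.5 and 23.8, with overlap (-0.26 ± 0.35).

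The 3 inhibitors of the Cip/Kip family went in different directions. *Cdkn1a* encodes p21, a target of p53 that blocks CDK2. It had 1229.7, 1079.7 and 934 in WT 1 to 3 and 2578, 7263 and 1453 in *Mgp*-KO 1 to 3, and 4361 and 1132 against 5326 and 1376 in replicates 4 and 5. *Mgp*-KO was above WT in the first set by 1.48 ± 0.51 (limma adjusted p = 0.154), while WT 4 lay above *Mgp*-KO 1, 3 and 5.

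*Cdkn1b*, the gene of p27, had 783, 884 and 805 in WT 1 to 3 and 956, 1419 and 903 in *Mgp*-KO 1 to 3, and 742 and 673 against 871 and 875. It was higher in *Mgp*-KO within each set and overlapped across them, since *Mgp*-KO 4 and 5 lay below WT 2. The fold change with the set term was 0.35 ± 0.14 (limma adjusted p = 0.213), and the two-sided exact permutation test over the 10 libraries gave p = 0.0238, unadjusted for the 44 members. By the same permutation test *Tk1* also had p = 0.0238, and *Rrm1* and *Ube2c* had p = 0.0476. *Cdkn1c* (chr7:143458339-143461050, minus strand), the imprinted gene of p57, was the 1 inhibitor called. It had 707, 550.3 and 459 in WT 1 to 3 and 319, 223 and 309 in *Mgp*-KO 1 to 3, but 1013 and 680.1 in WT 4 and 5 and 1818 and 756 in *Mgp*-KO 4 and 5. It was lower in all *Mgp*-KO libraries of the first set (-1.004 ± 0.21, limma adjusted p = 0.046) and overlapped in the second (0.50 ± 0.48, adjusted p = 0.748). Among members the levels per kilobase of annotated exon in WT were led by *Cdkn1a*, at a mean of 492 normalized counts per kilobase, followed by *Cdkn1c* at 334 and *Cdk4* at 230.5, whereas *Pcna* had 94.6, *Mki67* 12.4, *Top2a* 9.22 and *Bub1* 1.13.

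The sets themselves differed in 11 of 41 members, beside the 38.2% of all tested genes given above. With genotype in the model *Rrm2*, *Ccne1*, *Kif20a*, *Aurka*, *Mcm4*, *Mcm7* and *Cdk4* were lower in replicates 4 and 5, from -2.01 for *Rrm2* to -0.46 for *Cdk4*. *Cdc6*, *Tyms*, *Cdkn1c* and *Ccnd2* were higher, by 1.40, 1.32, 1.31 and 0.97. The labels do not say what separates the sets.

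Further genes of the same pathways were taken from lists. Of 36 tested S-phase genes outside the members, limma called 0 by genotype over all 10 libraries (3 at an unadjusted p under 0.05; DESeq2 0 of 38, edgeR 0), 0 with the set term (6 unadjusted; DESeq2 1 of 37, edgeR 0) and 1 in replicates 1 to 3 (*Ung*, a uracil glycosylase, higher by 0.66, adjusted p = 0.0481; edgeR 1 higher, DESeq2 1 lower and 2 higher), and their median fold change in that set was -0.11. Of 37 tested mitosis genes outside the members, 3 were lower in replicates 1 to 3 by limma and by edgeR, beside 226 and 208 of all 13714 tested genes. By DESeq2 11 of 56 were lower and 1 higher, beside 647 lower and 701 higher of its 15270 tested genes. Over all 10 libraries limma called 0 of the 37 (6 unadjusted, DESeq2 0 of 57, edgeR 0), and with the set term 0 (6 unadjusted, DESeq2 3 lower and 1 higher, edgeR 0). The 3 limma calls were *Prc1* and *Kif4* of the central spindle and *Ckap2l*, at -1.80, -1.96 and -2.24 (limma adjusted p = 0.0257, 0.0391 and 0.0316). These 4 genes are named after their values were seen. The median of the 37 was -0.52 in replicates 1 to 3, with 29 negative and 8 positive values, and 0.50 in replicates 4 and 5, with 11 negative and 26 positive. The sum was taken over all 58 genes of this list, tested or not. It was 3799 ± 199.6 in WT 1 to 3 and 3730 ± 246 (SD, n = 3) in *Mgp*-KO 1 to 3, with overlap between the groups. In replicates 4 and 5 it was 3345 and 3395 in WT and 6571 and 4413 in *Mgp*-KO, so that *Mgp*-KO was higher without overlap, unlike for the mitosis members. The immediate early genes are switched on within minutes by growth factors, stress or handling. In replicates 1 to 3 limma called 7 of 13 higher in *Mgp*-KO, beside 260 of all 13714 tested genes. Their sum was 21389 to 24189.7 in *Mgp*-KO 1 to 3 and 8954 to 11786 in WT 1 to 3. In replicates 4 and 5 it was 8798 and 9514 in WT and 12782 and 3887 in *Mgp*-KO. With the set term *Myc* and *Btg2*, an antiproliferative gene of this list, were higher by 1.11 and 1.34 (limma adjusted p = 0.0259 and 0.0481). Of 12 tested p53 targets 1 was called with the set term, the stress-response gene *Sesn2*, at a fold change of -1.12 (limma adjusted p = 0.0205), and DESeq2 called 2 lower and 1 higher with the set term and 2 lower and 2 higher in replicates 1 to 3.

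Markers of other cells moved with some of these libraries. The brown adipocyte markers were all detected (10 of 10), with sums of 149352 to 410747, as the tissue label says, and *Ucp1*, *Elovl3* and *Dio2* were lower in *Mgp*-KO with the set term (-2.70, -3.64 and -3.35, limma adjusted p = 0.0127, 0.0104 and 0.0228). In replicates 1 to 3, where the mitosis genes were lower, the brown adipocyte sum was 149352 to 185159 in *Mgp*-KO against 212731 to 228227 in WT, without overlap. Of the 10 markers 8 had a negative and 2 a positive fold change in this set. *Ucp1* was at 2201 to 11904 in *Mgp*-KO against 38421 to 46191 in WT. *Fabp4*, the largest term, overlapped (93254 to 98553 against 87326 to 101057). *Pparg* was higher in every *Mgp*-KO library of the set (4465 to 5313 against 3722 to 3903). The sum of 12 adipose progenitor markers in the same set was 12800.2 to 24208 in *Mgp*-KO against 25136 to 49932 in WT, also without overlap. In WT 1 to 3 its largest values were those of *Col1a1* and *Col3a1* (6902 to 17432.5 and 12721 to 25997), against 2787 to 6158 and 2769 to 11520 in *Mgp*-KO. Of the 12 markers 9 had a negative and 3 a positive fold change in this set. *Dcn* was higher in every *Mgp*-KO library of it (2451 to 4004 against 2062 to 2370). *Mgp*-KO 4, which had the highest *Top2a*, *Tpx2* and *Foxm1* of all libraries, also had the highest sum of 8 detected erythroid markers, 101764 against 3019 to 26461 elsewhere, and of 12 endothelial markers, 72712 against 23466 to 40766. Its sum of 13 lymphoid and thymocyte markers was the highest too, at 241 against 52.0 to 158, led by *Ms4a1* (63.1) and *Cd79b* (61.5). Of the same list, *Rag1* and *Dntt* were at 0 to 5.86 in every library. *Mgp*-KO 2, with the lowest *Mki67*, *Ccna2* and *Ccnd1* and the highest *Cdkn1a*, had a sum of 29874 for 9 skeletal muscle markers, and *Mgp*-KO 5 had 34236, against 348 to 6396 elsewhere. Their part in the results was not tested. Without *Mgp*-KO 2 the median fold change in replicates 1 to 3 was -1.08 for the mitosis genes and -0.34 for the S-phase genes.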

How the data were processed

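Whole iBAT RNA of 10 mice (5 WT and 5 *Mgp*-KO by the labels; described as 5 pairs in the methods of the study) was sequenced as single reads. The deposited signal values are gene counts that the authors obtained with STAR on mm10 (gene counting mode) and divided by the DESeq2 size factor of each library. The annotation release and the strand setting are not given in the sources used here. Dividing by the step of each library gave whole reads (largest deviation 0.00181 reads), 9253793 to 22252260 per library, so that 1 read was worth 0.715 to 1.73 normalized counts. Counting error at low reads is therefore larger in replicates 4 and 5. All 10 columns matched a label by name.

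Values were tested as log2(value + 1) in genes with a mean of at least 10 (limma 3.58.1 in R 4.3.3, trended prior, Benjamini-Hochberg over all tested genes, threshold 0.05). Fits used all 10 libraries without and with a term for the set (replicates 1 to 3 or 4 and 5), each set alone, and the interaction. Alternatives were pseudocounts of 0.5 and 10, no filter or a mean of at least 50, equal upper quartiles, DESeq2 1.42.0 and edgeR 4.0.16 on the recovered reads, the replicate number as a block, and libraries left out. The exact permutation test cannot go below p = 0.00794 with 5 against 5 libraries or 0.1 with 3 against 3. Nothing says how the animals were chosen beyond the labels, so p-values measure the spread between these libraries. The fitting code was tested on simulated data.

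The members and all lists (further S-phase and mitosis genes, RB, E2F and DREAM genes, other kinases and inhibitors, p53 targets, immediate early genes and cell type markers) were chosen with earlier results of these data known. Per-library values were printed for members called in a fit and for 12 chosen by name. Those of *Tk1*, *Rrm1*, *Ube2c*, *E2f1* and *Foxm1* were added after their values were seen. Promoter letters are from RefSeq, and gene positions and exon lengths from the GENCODE annotation of mm10. Results on 1 further marker list are not reported here.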

Additional observations from a re-analysis of the deposited data

Results flagged for a closer look

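In 128 groups of 5 libraries (each member, each summed list described and the ratio of mitosis to S-phase sums, WT and *Mgp*-KO apart), 16 held a library whose distance to the nearest other value took up most of the range of its group. Chance would flag about 1 in 20 groups of independent values with 1 normal spread. Each group here mixes libraries of both sets, and the member sums reuse the member genes. The 16 are therefore not set against that rate.

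*Mgp*-KO 4 stood above the other 4 *Mgp*-KO libraries in *Top2a* (170.0 normalized counts), *Tpx2* (61.5), *Foxm1* (87.4), *Ccnd2* (2143) and the sums of the mitosis members (779), the G1 cyclins and kinases (4683), the other mitosis genes (6571), the endothelial markers (72712) and the erythroid markers (101764). WT 4 stood apart from the other WT libraries in *Top2a*, with the lowest value (30.8), and in *Cdkn1a* (4361), the sum of the inhibitors (6115) and the endothelial markers (40766), with the highest. WT 5 had the highest *Cdc6* (65.8) and the lowest *Cdk2* (343) of the WT libraries. *Mgp*-KO 2 had the highest *Cdkn1b* (1419). Of these 16 values 15 belong to replicates 4 and 5, the shallower libraries, and *Mgp*-KO 4 was the shallowest of all. The part of depth in these values was not tested.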

How the results depend on the processing

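The number of members called by genotype over all 10 libraries (0 by limma) was 2 with the libraries labelled *Mgp*-KO 4 and 5 left out (*Ccna2* and *Cdkn1c*). WT 4 and 5 stayed in that fit. With the set term (1) it was 0 without a filter, 0 at a mean of at least 50, where *Kif20a* is not tested, 2 by DESeq2, and 0 to 1 with a library left out. In replicates 1 to 3 (4) it was 7 at a pseudocount of 10, 0 without a filter, 2 at a mean of at least 50, 12 by DESeq2, and 0 to 6 with a library left out. Without a filter more genes enter the adjustment. Interaction calls (0) ran from 0 to 8 with a library left out. For other counts that moved, the cause was not tested.

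The median fold change (-0.05 for the S-phase and -0.66 for the mitosis members over all 10 libraries) was -0.18 to 0.08 and -0.55 to -1.01 with a library left out, the last without *Mgp*-KO 4, and 0.05 and -1.13 at a mean of at least 50. It was -0.37 in replicates 1 to 3 alone and 0.31 in replicates 4 and 5 alone for the S-phase members, and -1.22 and 0.11 for the mitosis members. The difference of both medians (0.62, S phase minus mitosis) was 1.18 at a mean of at least 50 and 0.19 in replicates 4 and 5 alone. For the 5 calls of single members, 33 alternative values kept the call, 33 did not, and 0 turned the direction.

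With the replicate number as a replicate block, limma called 0 members (7 at an unadjusted p under 0.05) and 270 genes in all instead of 9, and DESeq2 called 2 members (*Tk1* lower and *Cdkn1a* higher). Deviations of same-numbered libraries correlated at 0.527, 0.0559, 0.327, 0.523 and 0.514, and 2 of 5 WT and 3 of 5 *Mgp*-KO libraries correlated best with their own number, so that the numbers were not taken to pair the libraries. Low reads limit *Ccnb1*, *Aurkb*, *Bub1* and *Tk1*.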

Other observations

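Of 17 tested RB, E2F and DREAM genes, which hold or release the cell cycle promoters, limma, DESeq2 and edgeR called 0 by genotype over all 10 libraries, with the set term or within either set (4 at an unadjusted limma p under 0.05 in replicates 1 to 3, 2 over all 10 libraries). The median log2 fold change was -0.04 over all 10 libraries and -0.03 in replicates 1 to 3. Of 12 tested kinases, phosphatases and inhibitors of the checkpoints and of G1 outside the members, limma and edgeR called 0 in any genotype fit (2 at an unadjusted limma p under 0.05 in replicates 1 to 3), and DESeq2 called 1 as lower in that set and 1 as lower with the set term, with a median of -0.21 over all 10 libraries and -0.14 in replicates 1 to 3. The 12 p53 targets had medians of 0.08 and 0.17, with *Sesn2* lower.

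Of the cell type markers, limma and edgeR called 0 of 12 endothelial, 12 adipose progenitor, 8 mural, 10 myeloid, 5 tested lymphoid, 8 erythroid and 9 skeletal muscle genes by genotype in any fit. In replicates 1 to 3 the unadjusted limma p was under 0.05 for 5 endothelial, 6 adipose progenitor and 1 mural gene, and for 0 genes of the other lists named in the sentence before, and DESeq2 called 1 endothelial gene higher and 2 adipose progenitor genes and 1 mural gene lower. All 12 endothelial genes had a positive fold change over all 10 libraries (median 0.48), and 8 of 12 adipose progenitor genes a negative one (median -0.38).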
